A study of Homo sapiens with 8 samples.

Results

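The 10 receptor tyrosine kinases described here are MET, KIT, IGF1R, EGFR, ERBB2, FGFR1, FGFR2, PDGFRB, AXL and ROR1. They were picked by name, as receptors studied in melanoma, from the 35238 gene symbols of the count table. No cut on a measured value entered the choice, but earlier results of these data were known when it was made. All 10 had counts in every library and were among the 15085 genes that passed a filter on low counts. RNA was sequenced from MP38, an established BAP1-mutant uveal melanoma cell line, in 4 groups of 2 libraries. The control cells received 0.1% DMSO for 24 h, and the other groups received for 24 h the histone deacetylase (HDAC) inhibitor romidepsin at 40 nM, the HDAC inhibitor quisinostat at 40 nM or the BET bromodomain inhibitor mivebresib at 1200 nM. The dose is thus matched in nM between the HDAC inhibitors only. All libraries come from 1 cell line, kept in a serum-containing medium supplemented with insulin. The study describes duplicate wells for each MP38 treatment group. Neither it nor the labels say that these wells came from independent cultures. The p-values thus measure the spread between these libraries, which may be technical.

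Receptor tyrosine kinases span the cell membrane, bind a growth factor outside the cell, dimerise and phosphorylate tyrosines on each other, to which adaptor proteins dock and start the RAS to MAPK and PI3K to AKT relays. KIT and its ligand guide the survival and migration of melanocytes, MET binds hepatocyte growth factor (HGF), and EGFR and AXL are known from melanoma cells that have lost melanocytic identity. In uveal melanoma the growth signal usually starts from a mutant Gq protein rather than from a mutant receptor.

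Total counts ran from 28483235 to 29359024 per library. Levels are given as CPM, the count scaled to a common library size with TMM factors, and genes are compared with each other only as CPM per kb of merged exon. Differences were tested with edgeR's quasi-likelihood test in one fit of all 8 libraries, with Benjamini-Hochberg adjustment over 15085 genes, and a gene is called at an adjusted p under 0.05. The melanocyte markers TYRP1, PMEL and MLANA averaged 3550, 504.7 and 205.9 CPM in the control cells, whereas the melanocyte marker DCT had at most 5 counts in any library. Of 8 fibroblast and mural markers, LUM, DCN, COL1A2, COL3A1 and THY1 had at most 5 counts in any library, but the 3 that were tested (COL1A1, RGS5 and PDGFRA, itself a receptor tyrosine kinase) had 2 calls higher with romidepsin, 3 higher with quisinostat and 1 lower with mivebresib. RGS5 had a mean of 1 count in the control libraries and 37.5 with quisinostat, so it could hardly be called lower. The summed CPM of the 8 was 14.2 and 22.2 in the control libraries, 25.0 and 20.8 with romidepsin, 36.7 and 36.0 with quisinostat and 8.41 and 10.7 with mivebresib, and COL1A1 rose from a mean of 1.53 CPM to 4.35 with romidepsin and 9.17 with quisinostat (log2 FC 1.51 and 2.58, adjusted p = 0.00391 and 6.77e-05). The 5 epithelial markers summed to between 4.71 and 5.07 CPM in the control libraries and between 11.4 and 11.7 with quisinostat. Their sums were 7.52 and 8.95 with romidepsin and 6.55 and 6.58 with mivebresib. Of the 3 tested (CDH1, KRT8 and KRT18), 1 was called higher with romidepsin, 3 higher with quisinostat, and 1 higher and 1 lower with mivebresib. CDH1 averaged 1.79 CPM in the control cells and 0.617 with mivebresib. Of all tested genes, 15.2%, 28% and 22.2% were called higher and 15.8%, 25.1% and 24.1% lower with romidepsin, quisinostat and mivebresib. Of 5 leukocyte markers CD68 was at 61.1 to 83.0 CPM in all libraries, with no call in any group, and the others, PTPRC among them, had at most 11 counts, while the 5 endothelial markers summed to at most 25 counts in a library and CDH5 was at 0. The part of these markers in the receptor values was not tested. In bulk RNA, fewer cells expressing a receptor and less RNA per cell cannot be told apart.

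In the DMSO control cells MET was the most abundant of the 10 receptors, and the levels per kb spanned the range from MET to the barely detected PDGFRB. MET was at 101 and 147 CPM per kb in the control libraries, KIT, the receptor of stem cell factor, at 37.7 and 55.8, and IGF1R, the receptor of insulin-like growth factors, at 11.03 and 16.5. ERBB2, an ERBB family receptor with no known ligand of its own, and ROR1, a receptor of WNT5A, followed at means of 4.58 and 4.12 CPM per kb. EGFR, which binds EGF, TGFA and HBEGF, and the fibroblast growth factor receptor FGFR1 averaged 1.57 and 1.51 CPM per kb. AXL, which binds GAS6, FGFR2 and PDGFRB, the receptor of platelet-derived growth factor B, were lowest at 0.269, 0.176 and 0.0709 CPM per kb. The control ranges of ERBB2 and ROR1 overlapped, as did those of EGFR and FGFR1, so their order within each pair is not separated by the spread, and the ranges of the other neighbours did not overlap. MET made up 63.0% of the summed CPM per kb of the 10 receptors in the control cells, 62.8% with romidepsin, 59.8% with quisinostat and 65.6% with mivebresib, so it stayed in the first place in every group.

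**Figure D1:**
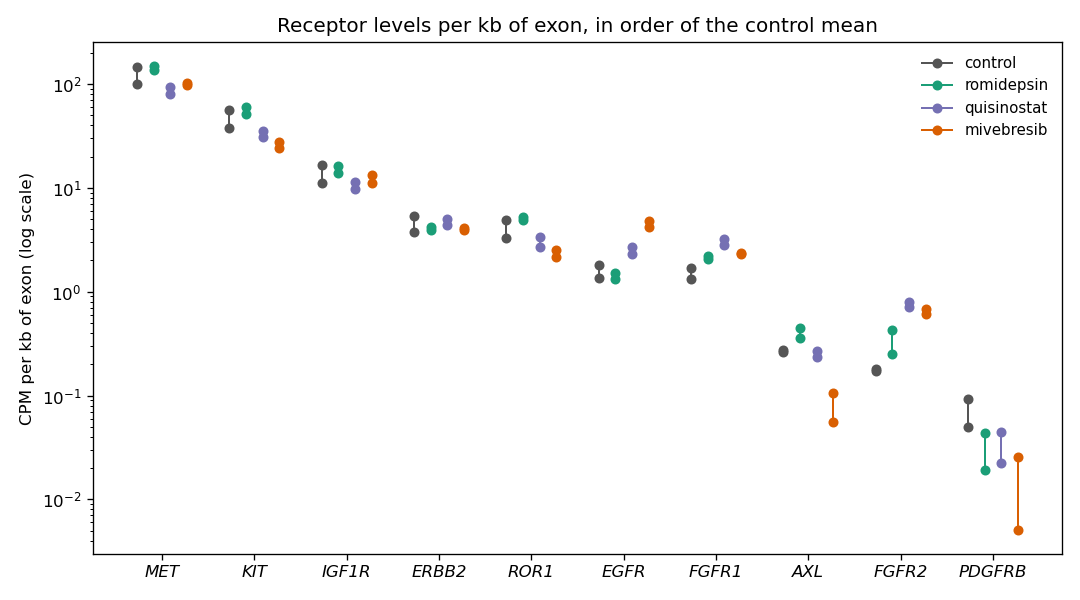
Levels of the 10 receptors in CPM per kb of exon on a log axis, ordered by the control mean, with 1 point per library and a line joining the libraries of a group. MET, KIT and IGF1R hold the first 3 places in each group, EGFR moves from place 6 in the control to place 4 with mivebresib, and PDGFRB is last throughout.

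The receptors did not move as a block. Mivebresib raised EGFR, FGFR1 and FGFR2 and lowered KIT, ROR1, AXL and PDGFRB, quisinostat raised the same 3 receptors and lowered MET and KIT, and romidepsin raised FGFR1 and FGFR2 alone. In numbers, romidepsin raised 2 and lowered 0 of the 10, where 15.2% and 15.8% of all tested genes were called higher and lower. No member passed the study's additional fold threshold with romidepsin, a log2 fold change (log2 FC) beyond 1.5, which 4.08% of all genes passed. Quisinostat raised 3 and lowered 2, against 28% and 25.1% of all genes, and 1 member, FGFR2, passed the fold threshold, against 12.2%. Mivebresib raised 3 and lowered 4, against 22.2% and 24.1%, and 4 members (EGFR, FGFR2, AXL and PDGFRB) passed the fold threshold, against 8.32%. The median log2 FC of the 10 was 0.23 with romidepsin, -0.25 with quisinostat and -0.26 with mivebresib, beside -0.012, -0.0036 and 0.0067 over all tested genes. A joint test of any difference among the 4 groups called 7 of the 10, all but IGF1R, ERBB2 and PDGFRB, against 74.2% of all genes, so the share of members called was close to that of genes in general.

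**Figure D2:**
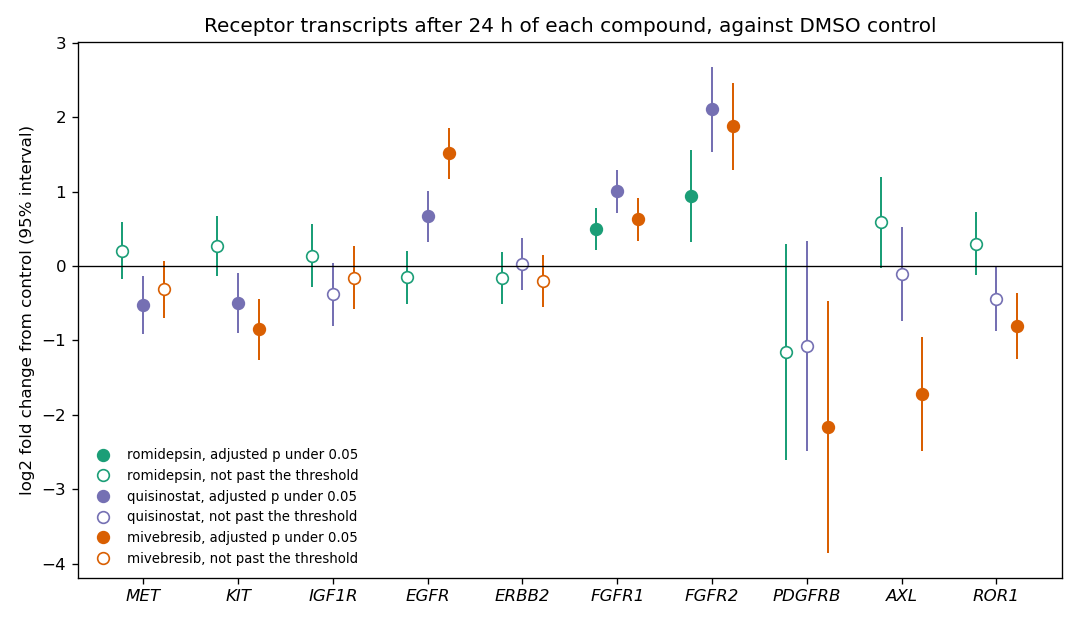
Log2 FC of each receptor against the DMSO control for romidepsin, quisinostat and mivebresib, with 95% intervals and filled points for an adjusted p under 0.05. FGFR1 and FGFR2 lie above 0 with every compound, EGFR reaches 1.51 with mivebresib, and the intervals of PDGFRB are the widest.

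Of the ERBB family members, EGFR rose and ERBB2 gave no call in any comparison. EGFR was at 16.8 and 22.5 CPM in the control libraries, 18.8 and 16.5 with romidepsin, 28.998 and 33.4 with quisinostat and 52.0 and 59.8 with mivebresib. The quisinostat and mivebresib libraries lay above both control libraries and did not overlap each other, while the romidepsin libraries lay within or just below the control range. EGFR thus rose 1.59-fold with quisinostat (log2 FC 0.67, SE 0.15, adjusted p = 0.00568) and 2.85-fold with mivebresib (log2 FC 1.51, SE 0.15, adjusted p = 9.26e-05). The quisinostat call was lost without quisinostat replicate 2 (adjusted p = 0.0506). With romidepsin its log2 FC was -0.15, with a 95% interval from -0.51 to 0.20. ERBB2 was at 39.1 and 55.5 CPM in the control libraries, 43.7 and 40.6 with romidepsin, 44.8 and 51.7 with quisinostat and 40.2 and 42.2 with mivebresib. Every treated library of ERBB2 fell within the control range, and its intervals of log2 FC ran from -0.52 to 0.18, from -0.32 to 0.38 and from -0.55 to 0.15 in that order of compounds. Within a library, EGFR stood at 0.354 and 0.334 of the ERBB2 level per kb in the control cells, at 0.533 and 0.532 with quisinostat, and at 1.07 and 1.17 with mivebresib, so the order of the family members turned over in both mivebresib libraries.

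FGFR1 and FGFR2 rose with all compounds. FGFR1 was at 18.4 and 23.5 CPM in the control libraries, 30.3 and 28.7 with romidepsin, 39.0 and 44.8 with quisinostat and 31.8 and 32.8 with mivebresib. No treated library of FGFR1 overlapped the control, and the quisinostat libraries were the highest. Its log2 FC was 0.50 (SE 0.13, adjusted p = 0.0184) with romidepsin, 1.00 (SE 0.12, adjusted p = 0.000247) with quisinostat and 0.63 (SE 0.13, adjusted p = 0.00379) with mivebresib. FGFR2, present at 37 counts in each control library, was at 1.31 and 1.35 CPM there, 3.23 and 1.89 with romidepsin, 5.38 and 6.08 with quisinostat and 4.61 and 5.18 with mivebresib. The romidepsin libraries of FGFR2 lay apart from each other but above the control, and both other compounds gave higher values than romidepsin in every library. FGFR2 rose 1.92-fold with romidepsin (adjusted p = 0.0311), 4.30-fold with quisinostat (adjusted p = 0.000195) and 3.67-fold with mivebresib (adjusted p = 0.000501). The romidepsin calls were lost without romidepsin replicate 1 (FGFR1 log2 FC 0.46, adjusted p = 0.112, and FGFR2 0.51, adjusted p = 0.21), and the FGFR1 call also without romidepsin replicate 2 (adjusted p = 0.0637). The FGFR2 call with romidepsin was lost as well without control replicate 1 (adjusted p = 0.0636) and without either mivebresib library (0.0508 and 0.0507).

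KIT and ROR1 fell with mivebresib. KIT was at 209.6 and 310.4 CPM in the control libraries, 336 and 288 with romidepsin, 171 and 198 with quisinostat and 136 and 152 with mivebresib. ROR1 was at 22.2 and 33.2 CPM in the control libraries, 35.0 and 33.1 with romidepsin, 17.9 and 22.8 with quisinostat and 14.5 and 17.0 with mivebresib. For both genes the mivebresib libraries were the lowest and clear of the control, whereas ROR1 in the second quisinostat library overlapped the control. Mivebresib lowered KIT to 0.554 of the control (log2 FC -0.85, SE 0.18, adjusted p = 0.00472) and ROR1 to 0.570 (log2 FC -0.81, SE 0.19, adjusted p = 0.00883). Quisinostat lowered KIT to 0.710 of the control (log2 FC -0.49, SE 0.18, adjusted p = 0.0434), whereas ROR1 had a log2 FC of -0.45 and an adjusted p of 0.0779. The ROR1 call with mivebresib was lost without mivebresib replicate 1 (log2 FC -0.71, adjusted p = 0.0701). The KIT call with quisinostat was lost when any 1 of the 6 treated libraries was left out (adjusted p = 0.0556 to 0.219), and without control replicate 2 it was lost with a log2 FC of -0.19 (adjusted p = 0.192).

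MET and IGF1R, the other abundant receptors, moved less. MET was at 709 and 1035 CPM in the control libraries, 1057 and 953 with romidepsin, 564 and 653 with quisinostat and 682 and 719 with mivebresib. The quisinostat libraries of MET lay below both control libraries, and those of the other compounds overlapped the control. Quisinostat lowered MET to 0.697 of the control (log2 FC -0.52, SE 0.17, adjusted p = 0.0301), while the 95% intervals of its log2 FC ran from -0.18 to 0.59 with romidepsin and from -0.70 to 0.07 with mivebresib. Without control replicate 2 the log2 FC of MET with quisinostat was -0.23 (adjusted p = 0.0921), without either quisinostat library the adjusted p was 0.0563 or 0.179, and without either mivebresib library it was 0.0507 or 0.0506. IGF1R was at 154 and 229 CPM in the control libraries, 227 and 194 with romidepsin, 137 and 157 with quisinostat and 156 and 187 with mivebresib. Each treated group of IGF1R overlapped the control, and the intervals of its log2 FC ran from -0.28 to 0.56, from -0.81 to 0.04 and from -0.58 to 0.26 in that order, which leaves changes of that size undetected.

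AXL and PDGFRB were the scarce receptors, and both were lowest with mivebresib. AXL was at 1.35 and 1.42 CPM in the control libraries, 2.30 and 1.86 with romidepsin, 1.203 and 1.37 with quisinostat and 0.549 and 0.288 with mivebresib. The mivebresib values of AXL rest on 15 and 8 counts, against 38 and 39 in the control, and they lay below all other libraries. Mivebresib lowered AXL to 0.304 of the control (log2 FC -1.72, SE 0.34, adjusted p = 0.00339), and romidepsin gave a log2 FC of 0.59 with an interval from -0.02 to 1.19 although its libraries lay above the control. PDGFRB had 10 and 18 counts in the control libraries, 9 and 4 with romidepsin, 10 and 5 with quisinostat and 5 and 1 with mivebresib. At this depth the PDGFRB counts fell from the control to mivebresib without overlap (log2 FC -2.17, SE 0.74, adjusted p = 0.0407), and that call was lost without control replicate 2 (log2 FC -1.67, adjusted p = 0.157), without mivebresib replicate 2 (log2 FC -1.44, adjusted p = 0.21) and when any 1 of the romidepsin or quisinostat libraries was left out (adjusted p = 0.0509 to 0.0595).

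**Figure D3:**
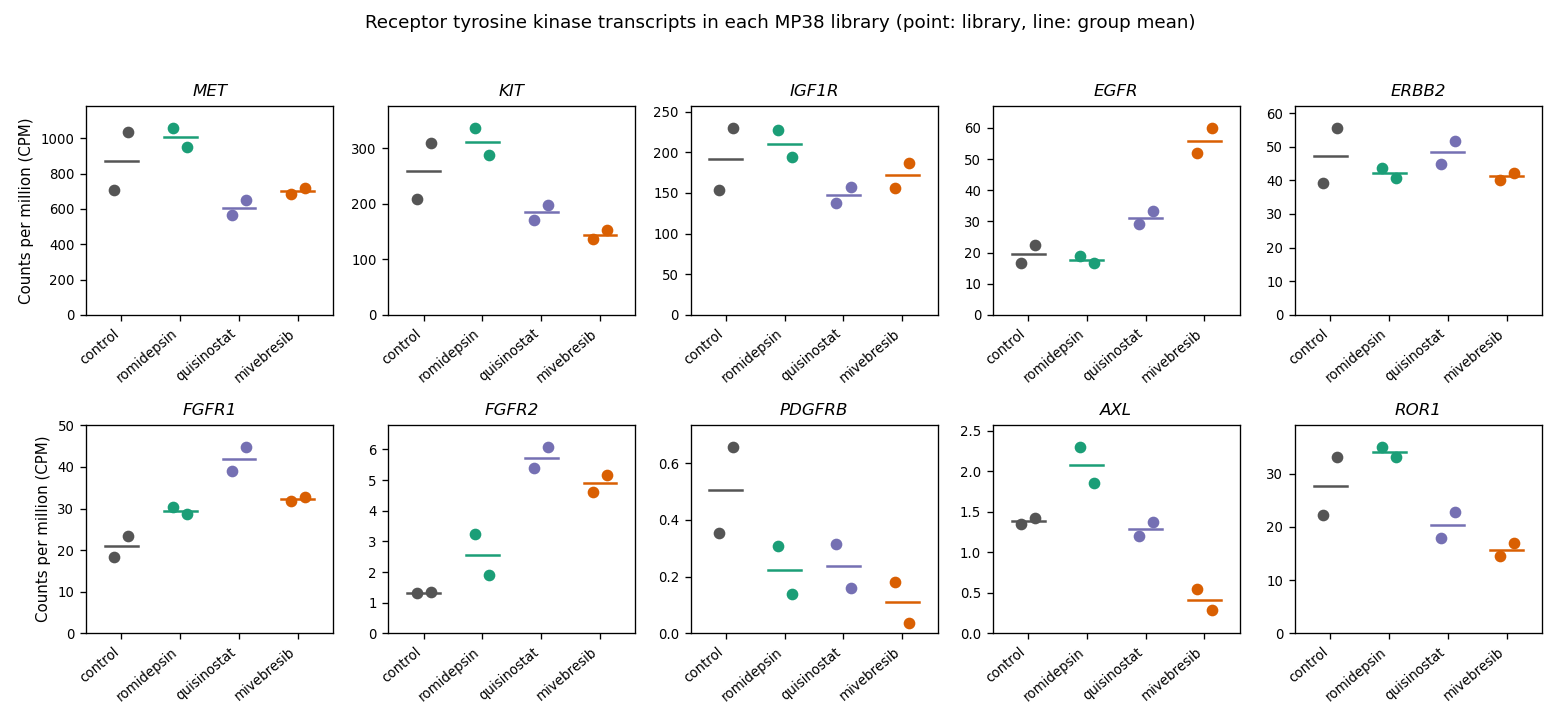
CPM of each receptor in each library (points) with the group mean (line), on a linear axis from 0 for each gene. The mivebresib points of EGFR (52.0 and 59.8) lie above all others, those of AXL (0.549 and 0.288) below all others, and the control points of MET, KIT, IGF1R and ROR1 lie far apart.

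A difference between the control libraries touches every comparison above. Measured as chi-square per degree of freedom, the counts of the control libraries differed from each other by 58.15. In the romidepsin, quisinostat and mivebresib pairs this value was 9.525, 9.785 and 9.521. The fit shares its spread over all groups, so p-values against the control may be too small and those between compounds too large. Control replicate 2 exceeded control replicate 1 for all 10 receptors, by 0.04 to 0.78 in log2 CPM with a median of 0.53, whereas it did so for 49.9% of all tested genes. The same difference went with transcript length, its median running from -0.23 in the fifth of genes with the shortest exons to 0.15 in the fifth with the longest, and the receptors have 5.15 to 13.9 kb of exon. The romidepsin libraries differed the other way, replicate 2 being the lower for all 10 receptors by a median of 0.21, and in quisinostat and mivebresib replicate 2 was the higher for 9 and 8 of the 10. Of all tested genes, replicate 2 was the higher for 51.6%, 48.2% and 47.9% in these groups. Shifts of at least the receptors' median, in either direction, were found in 17.8% of all genes in the control. With romidepsin, quisinostat and mivebresib this share was 30.1%, 26.1% and 53.5%. The part of this difference in the receptor values was not tested beyond leaving out libraries and an alternative, added after the data had been seen, with offsets that follow exon length, in which quisinostat lowered 4 receptors (MET, KIT, IGF1R and ROR1) and the counts of receptors raised were 2, 3 and 3 as before. With either control library left out, the receptors called with romidepsin and quisinostat changed. The receptors called with mivebresib changed in each of these fits as well. Over the 18 alternatives the log2 FC of MET ran from -0.0194 to 0.502 with romidepsin and from -0.771 to -0.228 with quisinostat. That of KIT ran from 0.0318 to 0.573 and from -0.753 to -0.19. More of all genes were called with romidepsin without control replicate 2 than with all libraries, and fewer without control replicate 1. EGFR, FGFR1, FGFR2, KIT and AXL kept their mivebresib calls and FGFR1 and FGFR2 their quisinostat calls in all 18 alternatives.

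A ratio within a library cancels what its genes share in that library, and by this measure KIT and ROR1 stood apart from MET with mivebresib. KIT stood at 0.296 and 0.300 of the MET CPM in the control libraries, at 0.318 and 0.302 with romidepsin, at 0.304 and 0.303 with quisinostat and at 0.199 and 0.212 with mivebresib. ROR1 stood at 0.0313 and 0.0320 of MET in the control libraries, between 0.0317 and 0.0349 with the HDAC inhibitors, and at 0.0213 and 0.0237 with mivebresib. With quisinostat the ratio of KIT to MET lay among the values of the control and romidepsin libraries, whereas with mivebresib both ratios lay below every other library. FGFR1 was at 7.66 and 9.51 times the FGFR2 level per kb in the control libraries, 5.14 and 8.30 times with romidepsin, 3.96 and 4.03 times with quisinostat and 3.78 and 3.47 times with mivebresib, so this ratio was lower with quisinostat and mivebresib alike. These ratios were chosen after the data had been seen, and with 2 libraries against 2 an exact permutation test cannot give a p under 0.333, so they are given without a test.

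**Figure D4:**
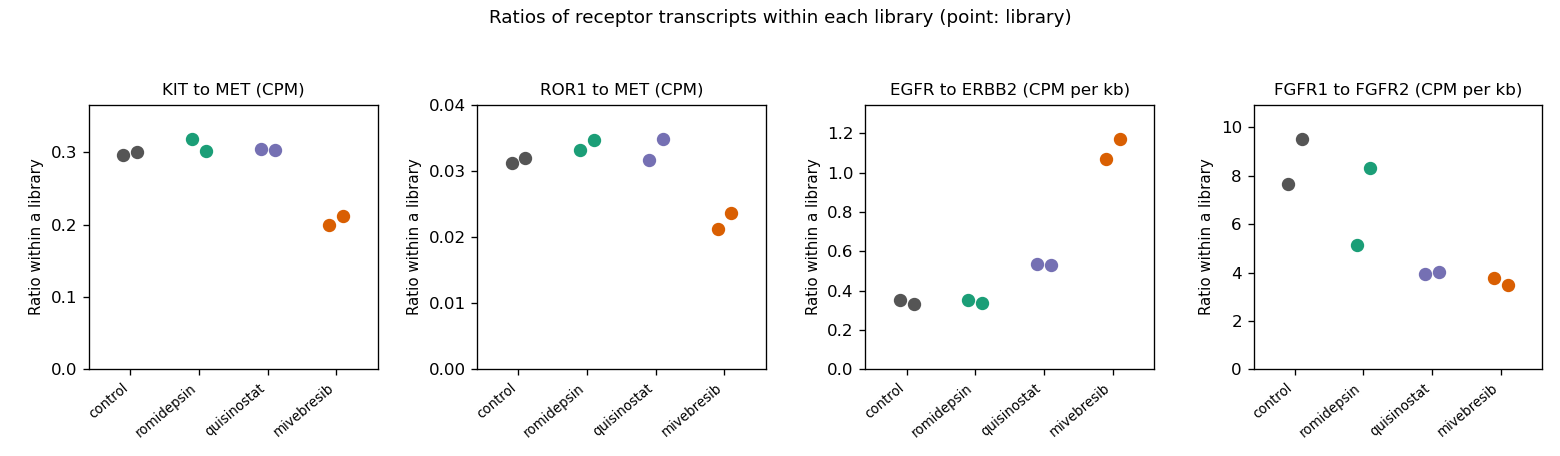
Ratio of a pair of receptor transcripts within each library (points) by group, on linear axes from 0, in CPM for KIT and ROR1 over MET and in CPM per kb for the others. The mivebresib points lie at 0.199 and 0.212 for KIT over MET, below all other libraries, and at 1.07 and 1.17 for EGFR over ERBB2, above all others.

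The responses to the compounds were compared directly for 3 pairs of compounds and 10 receptors, 30 comparisons in all. At the matched dose of 40 nM, quisinostat differed from romidepsin in 6 receptors, against 35.6% of all tested genes. EGFR was 1.77-fold, FGFR1 1.42-fold and FGFR2 2.24-fold higher with quisinostat than with romidepsin (adjusted p = 0.00396, 0.0133 and 0.00527). MET, KIT and ROR1 were lower with quisinostat, at 0.605, 0.591 and 0.597 of the romidepsin level (adjusted p = 0.0116, 0.0115 and 0.0158). Each romidepsin library of these 3 receptors lay above each quisinostat library. The MET and KIT differences were lost without romidepsin replicate 1 or quisinostat replicate 1 (adjusted p = 0.0769 to 0.0884), those of ROR1 without either of these or romidepsin replicate 2 (0.0579 to 0.111), and that of FGFR1 without either romidepsin library or quisinostat replicate 2 (0.0624 to 0.132). IGF1R and AXL missed the threshold narrowly, with log2 differences of -0.52 (interval -0.94 to -0.10, adjusted p = 0.0585) and -0.69 (interval -1.30 to -0.09, adjusted p = 0.0727), and the interval of ERBB2 was -0.15 to 0.55.

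At unmatched doses, mivebresib at 1200 nM differed from romidepsin at 40 nM in 6 receptors, against 48.9% of all genes. From quisinostat at 40 nM mivebresib differed in 3, against 57.7%. With either control library left out the count against quisinostat was higher, and more of all genes were called as well. Against romidepsin, EGFR was 3.17-fold and FGFR2 1.91-fold higher with mivebresib, while MET, KIT, ROR1 and AXL were at 0.697, 0.461, 0.463 and 0.202 of the romidepsin level. Against quisinostat, EGFR was 1.79-fold higher with mivebresib (adjusted p = 0.00123), while FGFR1 was at 0.771 and AXL at 0.327 of the quisinostat level (adjusted p = 0.0278 and 0.00337). AXL was thus lower with mivebresib than with either HDAC inhibitor. Leaving out any 1 romidepsin or mivebresib library ended the call of MET against romidepsin (adjusted p = 0.0723 to 0.158), leaving out romidepsin replicate 2 or mivebresib replicate 2 ended that of FGFR2 (0.0512 and 0.0624), and leaving out quisinostat replicate 2 or either mivebresib library ended that of FGFR1 against quisinostat (0.0925 to 0.202). KIT and ROR1 had log2 differences of -0.36 (interval -0.76 to 0.05) and -0.37 (interval -0.81 to 0.08) between mivebresib and quisinostat, which is not a detected difference and does not show an equal effect.

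The promoters of 4 receptors are shown because EGFR and FGFR2 rose most with mivebresib and KIT and ROR1 moved most alike. The sequences are the bases just before the gene's start in RefSeq on GRCh38.p14, read 5′ to 3′ on the gene's own strand and ended where the first exon of GENCODE begins, with the GC box GGGCGG or its reverse complement CCGCCC, the motif bound by SP1, in capitals. The EGFR window is chr7:55018767-55019016 (plus strand), upstream of a gene at chr7:55019021-55211628. The FGFR2 window is chr10:121598459-121598694 (minus strand), upstream of a gene at chr10:121478334-121598458. The KIT window is chr4:54657707-54657917 (plus strand), upstream of a gene at chr4:54657918-54740715. The ROR1 window is chr1:63773767-63774016 (plus strand), upstream of a gene at chr1:63774022-64181498.
EGFR: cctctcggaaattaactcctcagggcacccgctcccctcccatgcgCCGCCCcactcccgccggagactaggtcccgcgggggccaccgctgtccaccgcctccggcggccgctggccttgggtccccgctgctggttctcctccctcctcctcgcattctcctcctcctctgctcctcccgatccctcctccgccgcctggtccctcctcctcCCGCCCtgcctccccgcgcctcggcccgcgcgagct
FGFR2: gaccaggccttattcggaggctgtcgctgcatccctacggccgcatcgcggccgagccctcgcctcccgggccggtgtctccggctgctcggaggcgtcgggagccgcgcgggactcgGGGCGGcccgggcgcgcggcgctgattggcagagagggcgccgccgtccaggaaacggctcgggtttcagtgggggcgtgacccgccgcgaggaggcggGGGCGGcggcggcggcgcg
KIT: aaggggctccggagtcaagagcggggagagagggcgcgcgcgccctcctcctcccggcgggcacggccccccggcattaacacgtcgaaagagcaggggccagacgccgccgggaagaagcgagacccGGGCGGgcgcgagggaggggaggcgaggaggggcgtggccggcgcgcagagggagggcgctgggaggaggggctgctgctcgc
ROR1: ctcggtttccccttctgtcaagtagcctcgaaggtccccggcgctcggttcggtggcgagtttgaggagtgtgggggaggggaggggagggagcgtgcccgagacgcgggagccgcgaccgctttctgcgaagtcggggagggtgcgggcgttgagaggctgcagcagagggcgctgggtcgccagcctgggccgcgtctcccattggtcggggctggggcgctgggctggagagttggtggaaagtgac
Within the 250 bases before the RefSeq start, the GC box occurred 2 times for EGFR, 3 times for FGFR2, 1 time for KIT and 0 times for ROR1, the third of FGFR2 starting at the last base shown and so not in capitals above. Over the 9 receptors searched, MET, IGF1R and AXL had 2, PDGFRB 1 and ERBB2 0, so 7 of 9 held it, beside 42.6% of all 35116 promoter windows of that length. The windows of the receptors held 58.4 to 81.2% G and C, against a median of 58% over all windows. The E-boxes CACGTG and CATGTG, which MITF can bind, the AP-1 motif TGACTCA and the TATA sequence TATAAA were searched on both strands and were in none of the 9 windows, against 6.34%, 9.42%, 4.2% and 10.7% of all windows. FGFR1 was not searched. These are matches of letters and not measured binding.

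The genes whose profiles lay closest to that of a receptor were found by the root mean square (RMS) difference of log2 CPM over the 8 libraries. Each gene was first centred on its own mean, and 9839 or 9840 genes whose log2 CPM averaged 3 or more were compared. Differences between replicates thus enter the RMS beside those between groups. KIT and ROR1 were among each other's closest genes (RMS 0.0554), and CNTNAP1 and DLL4 were close to both. The closest genes to MET were CALU, SPTBN1 and SFT2D2 (0.0469 to 0.0695), and those to FGFR1 were SLC22A23, RABGAP1L and KIAA1671 (0.0573 to 0.0773). EGFR had no gene as close, the nearest being E2F7, SP4 and ADCK5 (0.127 to 0.141). FGFR2 lay near to NEO1 and CBLN1 (0.211 and 0.215), AXL to PARP9, DPP4 and TIMP3 (0.194 to 0.224) and PDGFRB, at few counts, to SLC37A2, FBXW4 and GPX8 (0.466 to 0.473). With 8 libraries in 4 groups a small RMS is a description of these libraries.

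The melanocyte regulators MITF and SOX10 are given beside the receptors because KIT is known as a target of MITF. In the order romidepsin, quisinostat and mivebresib, MITF had log2 FC of -0.22, -1.39 and -1.47 and SOX10 of -0.39, -0.92 and -1.93. KIT, at 0.26, -0.49 and -0.85, thus had the smaller change with each compound that lowered it, and EGFR, at -0.15, 0.67 and 1.51, ran in the other direction from MITF with quisinostat and mivebresib. The summed CPM of 7 melanocyte markers was 4193 and 5452 in the control libraries and 5027 and 4739 with romidepsin. It was 3563 and 4108 with quisinostat and 3698 and 3776 with mivebresib. TYRP1 made up most of it, at 2984.5 and 4116.3 CPM in the control libraries and 3073.8 and 3162.9 with mivebresib. Of the 6 tested, MITF and SOX10 among them, 1, 3 and 4 were called lower with romidepsin, quisinostat and mivebresib, and 0 higher. Of all tested genes 15.8%, 25.1% and 24.1% were called lower. The part of such a change in the receptor values was not tested.

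Of 48 other receptor tyrosine kinases, 40 were tested. Romidepsin raised 11 and lowered 1 (15.2% and 15.8% of all tested genes were called higher and lower), quisinostat raised 26 and lowered 0 (28% and 25.1% of all), and mivebresib raised 10 and lowered 8 (22.2% and 24.1% of all). The median log2 FC of the 40 was 0.42, 1.13 and 0.28. With genes at 0 in a whole group set to the bound that 3 counts per library allow, these medians were 0.39, 1.13 and 0.23. Some of the 40 passed the filter through the quisinostat libraries and could not be called lower with quisinostat. ROR2, for example, had 0 and 1 counts in the control libraries and 46 and 43 with quisinostat. The number raised by quisinostat ran from 19 with a mean CPM of at least 1 to 31 by library size alone. Fewer were raised by romidepsin without romidepsin replicate 1 and more without control replicate 2, and the number of all genes raised moved the same way. FGFR3, the most abundant FGF receptor per kb in the control cells (3.84 and 4.76 CPM per kb), fell with romidepsin (log2 FC -0.86, adjusted p = 0.00263) and rose 2.99-fold with mivebresib (adjusted p = 3.96e-05), to 12.4 and 13.3 CPM per kb. FGFR4 rose with all 3 compounds (log2 FC 1.17, 2.63 and 2.59). With quisinostat FGFR3 had a log2 FC of 0.41 (adjusted p = 0.0306), a call lost without control replicate 1 (log2 FC 0.26, adjusted p = 0.116) and when any 1 of the quisinostat or mivebresib libraries was left out, so the 4 FGF receptors were all called higher with quisinostat and mivebresib, FGFR3 weakly so with quisinostat. The romidepsin call of FGFR4 was lost without romidepsin replicate 1 (adjusted p = 0.0954). ERBB3, the partner through which ERBB2 signals in response to neuregulin, rose 2.19-fold with quisinostat (adjusted p = 0.000452) and fell with mivebresib from 3.65 and 4.75 CPM to 0.878 and 0.899 (log2 FC -2.23, adjusted p = 6.93e-05). PDGFRA, the relative of PDGFRB that binds PDGF-A, went the same ways (log2 FC 0.65 and -1.04), though its quisinostat call was lost without control replicate 1 (log2 FC 0.34, adjusted p = 0.0675) or either quisinostat library (0.0725 and 0.119). The lymphatic VEGF receptor FLT4, the GDNF family receptor RET and the ephrin receptor EPHB2 rose with quisinostat by 3.84, 2.50 and 2.42 and with mivebresib by 1.503, 1.70 and 1.25 on the log2 scale. The collagen receptor DDR2 fell with mivebresib (log2 FC -1.54, adjusted p = 0.000313), and the insulin receptor INSR rose slightly with it (log2 FC 0.55, adjusted p = 0.0346), a call that ended without control replicate 1 (log2 FC 0.28, adjusted p = 0.119) and without mivebresib replicate 2 or any 1 of the HDAC inhibitor libraries (adjusted p = 0.0537 to 0.203).

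Of 29 ligands of the 10 receptors, 18 were tested. Romidepsin raised 8 and lowered 0 (15.2% and 15.8% of all tested genes), quisinostat raised 10 and lowered 1 (28% and 25.1%), and mivebresib raised 7 and lowered 7 (22.2% and 24.1%), with median log2 FC of 0.50, 0.81 and -0.06. Fewer were raised by romidepsin without romidepsin replicate 2 and by mivebresib without mivebresib replicate 1, where fewer of all genes were raised as well. The EGFR ligands HBEGF and TGFA rose with every compound. HBEGF was at 14.2 and 16.0 CPM in the control libraries, 38.1 and 33.0 with romidepsin, 37.7 and 37.5 with quisinostat and 43.0 and 46.2 with mivebresib. All its treated libraries lay above 2 times the higher control value, and its log2 FC was 1.24, 1.32 and 1.57. TGFA had log2 FC of 1.01, 2.11 and 0.68, the call with mivebresib being lost without mivebresib replicate 1 (adjusted p = 0.0986). EGF, chosen with its values known, was at 2.66 and 5.44 CPM in the control libraries, 7.04 and 5.44 with romidepsin, 8.23 and 8.18 with quisinostat and 2.56 and 2.91 with mivebresib. EGF was thus called higher with quisinostat (log2 FC 1.02, adjusted p = 0.014), a call lost without either quisinostat library (adjusted p = 0.0545 and 0.0586) and with a log2 FC of 0.59 without control replicate 1 and 1.62 without control replicate 2, and its mivebresib libraries overlapped the control (log2 FC -0.56, interval -1.27 to 0.15). The neuregulin gene NRG1, whose product binds ERBB3, fell with mivebresib (log2 FC -1.71, adjusted p = 3.7e-05), as ERBB3 did.

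Of the 6 fibroblast growth factors tested, FGF1, FGF2 and FGF7 fell with mivebresib, FGF9 and FGF18 rose, and FGF5 had a log2 FC of -0.20 (adjusted p = 0.51). FGF1 was at 10.7 and 9.75 CPM in the control libraries, 13.7 and 12.9 with romidepsin, 10.2 and 10.1 with quisinostat and 0.805 and 0.863 with mivebresib, a fall by 3.61 on the log2 scale (adjusted p = 1.6e-06). FGF2 was at 7.79 and 7.74 CPM in the control libraries and at 1.57 and 1.22 with mivebresib (log2 FC -2.47, adjusted p = 9.88e-06), and between 6.68 and 7.01 with the HDAC inhibitors. FGF5, FGF7, FGF9 and FGF18 were chosen with their values known. FGF7 averaged 3.498 CPM in the control cells and 0.98 with mivebresib (log2 FC -1.83, adjusted p = 0.000395). FGF9 was at 2.16 and 2.81 CPM in the control libraries and at 5.998 and 5.36 with mivebresib (log2 FC 1.19, adjusted p = 0.00172), and it was higher with romidepsin and quisinostat as well (log2 FC 0.97 and 1.14), the romidepsin call being lost without romidepsin replicate 2 (adjusted p = 0.0641). FGF18 went from 0.283 and 0.256 CPM to 2.60 and 2.16 with mivebresib (log2 FC 3.12, adjusted p = 0.000373). The ROR1 ligand WNT5A rose with romidepsin and quisinostat (log2 FC 1.11 and 2.38) and fell with mivebresib (log2 FC -1.09, adjusted p = 0.00771). KITLG, the KIT ligand, rose with quisinostat (log2 FC 0.41, adjusted p = 0.00325). With mivebresib KITLG (log2 FC 0.23, adjusted p = 0.0489) and GAS6, the AXL ligand (log2 FC 0.57, adjusted p = 0.0307), were called higher where KIT and AXL fell. Without control replicate 1 these log2 FC were 0.15 (adjusted p = 0.18) and 0.35 (adjusted p = 0.142). Either call was also lost without a mivebresib or a quisinostat library, the KITLG call without a romidepsin library too, and with the replicate number as a block the KITLG adjusted p was 0.0576. HGF, the MET ligand, had 0 counts in all libraries.

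All 23 adaptors and signal relays were tested, of which romidepsin raised 3 and lowered 4, quisinostat raised 2 and lowered 13 and mivebresib raised 4 and lowered 9, beside 15.2% and 15.8%, 28% and 25.1%, and 22.2% and 24.1% of all genes, with medians of -0.07, -0.29 and -0.11. SHC4, an SHC family adaptor, was the 1 gene of that list past the fold threshold, which 4.08%, 12.2% and 8.32% of all genes passed, with log2 FC of 0.71 and 1.44 for the HDAC inhibitors and -2.07 with mivebresib (adjusted p = 7.31e-05), the romidepsin call being lost without either romidepsin library (adjusted p = 0.0546 and 0.0633). Of 21 inhibitors and degraders of receptors 20 were tested, of which romidepsin raised 3 and lowered 1, quisinostat raised 5 and lowered 6 and mivebresib raised 5 and lowered 5, with medians of 0.12, -0.12 and -0.08, and 1 (quisinostat) and 2 (mivebresib) of them passed the fold threshold. Without control replicate 2 romidepsin and mivebresib each raised more of the 20, and each raised more of all genes as well. SOCS2 and SOCS3, suppressors of cytokine signalling, fell with mivebresib (log2 FC -1.87 and -1.74), SOCS2 from 126 and 105 CPM in the control libraries to 32.4 and 30.5. GRB14, an inhibitor of insulin receptor signalling, had 0 and 2 counts in the control libraries, 38 and 33 with quisinostat, 7 and 5 with romidepsin and 5 and 4 with mivebresib. With so few control counts GRB14 could not be called lower.

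**Figure D5:**
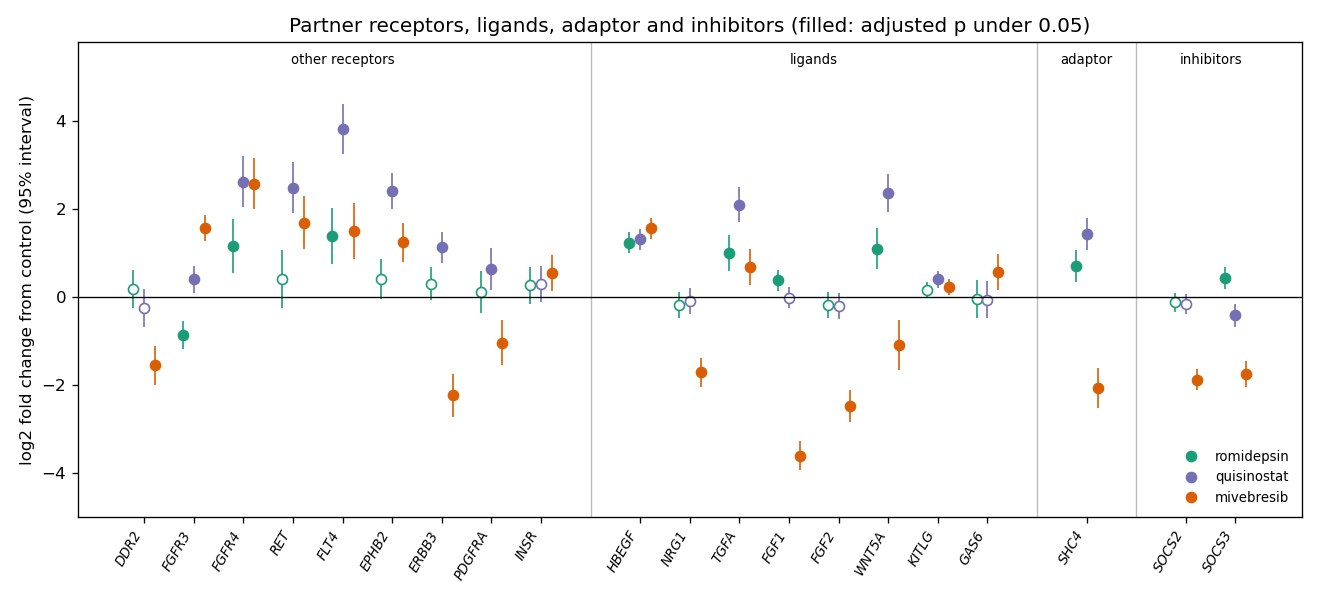
Log2 FC against the DMSO control with 95% intervals for named partner receptors, ligands, the adaptor SHC4 and the inhibitors SOCS2 and SOCS3, filled where the adjusted p is under 0.05. HBEGF lies above 0 with every compound, FGF1 reaches -3.61 with mivebresib, and ERBB3, PDGFRA, WNT5A and SHC4 lie above 0 with quisinostat and below 0 with mivebresib.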

How the data were processed

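RNA of MP38 cells was sequenced in 4 groups of 2 libraries. The authors processed the reads with BioJupies and deposited a table of counts per gene symbol without normalization (35238 symbols), which is the one table used here. The submitters' processing notes name hg38. The aligner and annotation are not given in the sources used here. The library kit kept strand, but whether the counting used it is not given, so genes on opposite strands that overlap cannot be told apart. The authors' log10(CPM + 1) and quantile-normalized tables were not used, and MP41 and MP46 cells were not analysed here.

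Groups came from the sample labels. Genes were filtered with filterByExpr by group (15085 kept), scaled by TMM and tested with edgeR 4.0.16 in R 4.3.3, in one quasi-likelihood fit of the 8 libraries with Benjamini-Hochberg adjustment over all kept genes. The script was tested on simulated data. DESeq2 1.42.0 and limma 3.58.1 served as alternatives. Log2 CPM used a prior count of 2. Exon lengths came from GENCODE 29 (27431 symbols matched) and promoters from RefSeq (GRCh38.p14, 9 of the 10 receptors, FGFR1 being left out of the search). Intervals are 95% intervals of the fit, and with 28483235 to 29359024 counts per library the number of libraries limits precision, as does depth for PDGFRB, AXL and FGFR2.

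The receptors and gene lists were chosen with earlier results of these data known. Other genes were named by rule: from each list those called with a log2 FC beyond 1.5 in at least 1 compound, at most 6 per list by average log2 CPM, the close partners and ligands ERBB3, PDGFRA, INSR, HGF, KITLG, GAS6 and WNT5A, and the 3 closest genes to each receptor called, of which 1 is not reported here. Marker genes, MITF and SOX10, overlapping genes and, after their values were seen, EGF, FGF5, FGF7, FGF9 and FGF18 were named besides. Alternatives were other scalings, filters, tests and thresholds, a replicate block, leaving out each library and, added after the data had been seen, offsets that follow exon length.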

Additional observations from a re-analysis of the deposited data

How the results depend on the processing

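The number of libraries, 2 per group, limits these results, as do the low counts of PDGFRB and AXL for those genes. A fit of the 4 libraries of a comparison alone gave 0 receptors raised by romidepsin, 0 lowered by quisinostat and 6 differing between mivebresib and quisinostat. Scaling by library size alone gave 0 lowered by quisinostat and 6 differing between mivebresib and quisinostat. Quisinostat lowered 0 with upper-quartile factors, 1 with a mean CPM of at least 1, 1 with limma-voom (where romidepsin raised 1) and 4 with length-dependent offsets, which were added after the data had been seen. At an adjusted p under 0.01, romidepsin raised 0, quisinostat lowered 0 and 2 differed between quisinostat and romidepsin. With a log2 FC beyond 1.5 required as well, romidepsin raised 0, quisinostat raised 1 and lowered 0, mivebresib lowered 2, and 0, 2 and 1 differed between quisinostat and romidepsin, mivebresib and romidepsin, and mivebresib and quisinostat. The cause was not tested.

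Leaving out 1 library at a time assumes that the lone library of a group varies like the other groups. For the control this is doubtful, since its libraries differed more from each other than those of the treated groups. The number of all tested genes called moved between these fits as well, so the counts that follow are not particular to the receptors. Romidepsin then raised 0 to 6 and lowered 0 to 1 receptors, quisinostat raised 2 to 4 and lowered 0 to 4, and mivebresib raised 3 in each case and lowered 3 to 7. Between 2 and 7 differed between quisinostat and romidepsin, 4 to 7 between mivebresib and romidepsin, 2 to 6 between mivebresib and quisinostat and 6 to 9 among the 4 groups.

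Log2 differences near 0 changed sign. Those of AXL with quisinostat were 0.093 by library size alone and 0.023 with upper-quartile factors, and with length-dependent offsets those of ERBB2 were -0.00769 for quisinostat against control and 0.0172 for mivebresib against romidepsin. Over the fits without 1 library, the log2 FC with romidepsin ran from -0.0194 to 0.502 for MET, -0.0991 to 0.452 for IGF1R, -0.325 to 0.0694 for EGFR and -0.374 to 0.106 for ERBB2. ERBB2 ran from -0.203 to 0.298 with quisinostat, from -0.429 to 0.0725 with mivebresib and from -0.0853 to 0.0194 for mivebresib against romidepsin. IGF1R ran from -0.418 to 0.156 with mivebresib, and PDGFRB from -0.494 to 0.765 for quisinostat against romidepsin. These sign changes came without control replicate 1 or 2 except those of ERBB2 without quisinostat replicate 2 or romidepsin replicate 1 and of PDGFRB without romidepsin replicate 2 or quisinostat replicate 1.

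Replicate numbers were not used to pair the samples in the main fit, since the labels state no pairing. The deviations of same-numbered libraries correlated between -0.162 and 0.158 over genes, which cannot settle whether same-numbered samples were handled together. With the replicate number as a block, romidepsin raised 2 and lowered 0, quisinostat raised 3 and lowered 3 (ROR1 as well, log2 FC -0.44, adjusted p = 0.0365), mivebresib raised 3 and lowered 4, and 7, 6 and 3 receptors differed between quisinostat and romidepsin, mivebresib and romidepsin, and mivebresib and quisinostat.

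Among the other lists, the counts of adaptors raised and lowered ran from 1 to 5 and 1 to 6 with romidepsin and from 1 to 3 and 7 to 16 with quisinostat over 18 alternatives, and those of inhibitors from 2 to 7 and 3 to 8 with quisinostat and from 2 to 8 and 2 to 8 with mivebresib.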

Other observations

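Genes on the strand opposite to a receptor were looked at because strand use in counting is not given. At ERBB2, MIEN1 averaged 49.5 CPM in the control cells and 59.8 with mivebresib, close to the level of ERBB2 itself, and PGAP3 averaged 5.87 and 8.84. At FGFR1, LETM2 averaged 3.54 CPM in the control cells and rose with quisinostat (log2 FC 0.57, adjusted p = 0.0225 in edgeR's quasi-likelihood test), while FGFR1 rose by 1.00. EGFR-AS1 and ROR1-AS1, which lie opposite to EGFR and ROR1, were not analysed here.

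Of the 29 ligands, the ones not tested included, beside HGF, the EGFR family ligands AREG, EREG and BTC, with at most 9, 5 and 10 counts in any library, and IGF1, with at most 14. The EGFR ligands tested were HBEGF, TGFA and EGF, at means of 15.1, 5.16 and 4.05 CPM in the control cells.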
